A study of Mus musculus with 36 samples.

Results

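Capn11, a calpain protease gene of low level in brain, was followed with 6 other genes of its family, Capn1, Capn2, Capn5, Capn7, Capn10 and Capn15. The 7 genes were taken by symbol from a table of 31554 genes. Capn11 was selected on its own measured levels in these data, which were higher after nerve injury than after sham surgery in 2 regions, the nucleus accumbens (NAc) and the prefrontal cortex (PFC). Its injury values there are given as a description, with no test. The other members were chosen as its family, and all 7 had a measured level in each of the 36 libraries.

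RNA sequencing libraries came from adult male C57BL/6 mice that had sham surgery or spared nerve injury (SNI) of the sciatic nerve, a model of lasting neuropathic pain in which some branches of the nerve are cut and another is spared. NAc, PFC and the periaqueductal grey (PAG) were taken 2.5 months after surgery. The 6 groups were NAc sham (libraries 1 to 6), NAc SNI (7 to 12), PFC sham (13 to 18), PFC SNI (19 to 24), PAG sham (25 to 30) and PAG SNI (31 to 36). Each library was made from pooled RNA, and the labels do not give the number of mice in a pool, or tell whether a mouse gave tissue to more than 1 region. The p-values cover the spread between these pooled libraries, part of which may be technical.

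Calpains are cysteine proteases of the cell interior that cut their substrates at few sites and so change rather than destroy them. The classical members Capn1 and Capn2 are switched on by calcium, work as dimers with the small subunit Capns1, and are held in check by calpastatin, the product of Cast. In neurons they are known for cutting spectrin, cytoskeletal and synaptic proteins. Capn11 belongs to the classical, calcium-binding branch and is best known from testis. Capn5, Capn7, Capn10 and Capn15 lack the calcium-binding domain of the classical members and carry other domains in its place.

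Libraries held 27.6 to 64.9 M assigned reads (M, mega). Values are RPKM, reads per kilobase of gene per M reads. RPKM times gene length gave whole reads for 100% of the values, within a tolerance of 0.001, so the reads behind each level were known. Summed over marker lists, medium spiny neuron genes ranged from 1314 to 2006 RPKM in NAc against 42.7 to 137 elsewhere. Excitatory cortical genes ranged from 642 to 795 in PFC and midbrain genes from 207 to 425 in PAG. NAc libraries were uneven in the cortical list, at 11.1 to 242 RPKM, and PFC libraries in the oligodendrocyte list, at 240 to 1170, each in overlapping ranges of sham and SNI. In PAG, ependymal and choroid plexus genes summed to 838 RPKM in sham library 27 and 399 in SNI library 31, with the others at 68.9 to 87.8. SNI libraries 31 and 34 were the lowest of PAG in midbrain genes, at 207 and 222. The slope of a library's log2 values on the GC content of genes, relative to the region mean, ran from -0.18 to 0.06 (log2 per 10% GC) in NAc among sham libraries and from -0.20 to 0.15 among SNI libraries. It ran from -0.26 to 0.11 and from -0.24 to 0.12 in PFC. In PAG it ran from -0.21 to -0.03 in sham and from 0.04 to 0.22 in SNI libraries, with no overlap.

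Capn11 (ENSMUSG00000058626) lies on chromosome 17, 45630204 to 45659325, minus strand (GENCODE M21, the mm10 build), and no other annotated gene overlaps it. Upstream of it, 845 bases away and on the same strand, ends Tmem63b, which encodes an ion channel of the membrane. The sequence before the Capn11 start is shown because Capn11 varied more between libraries than the other members, and carries 1 match each to a GC box (GGGCGG or CCGCCC) and a CCAAT box (CCAAT or ATTGG), in capitals. It is read 5′ to 3′ on the gene's strand from the RefSeq promoter table (GRCm38.p6), at chr17:45659326-45659559.
Capn11 upstream region: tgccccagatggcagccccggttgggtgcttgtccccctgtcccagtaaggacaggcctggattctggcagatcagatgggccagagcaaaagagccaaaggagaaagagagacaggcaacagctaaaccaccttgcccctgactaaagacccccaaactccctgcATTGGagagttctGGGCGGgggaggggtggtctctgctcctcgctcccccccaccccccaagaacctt
The GC box was found in 30.4% and the CCAAT box in 32.5% of 32851 promoters over the same 234 bases. A TATA box (TATAAA or TTTATA), held by 11.9% of promoters, was not found in this window. Neither was a cAMP response element core (TGACGTCA, 1.35%) nor an E-box (CACGTG, 5.45%), both of which read the same on either strand. The 250 bases before the RefSeq start of Capn11 held 3 CpG, at the 37.8 percentile of all promoters. The first listed starts of Capn1, Capn2, Capn7, Capn10 and Capn15 held 11, 19, 18, 16 and 18 CpG.

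Capn11 was the lowest member in each region and the most uneven one. In NAc sham libraries 1 to 6 it was at 0.0287, 0.0721, 0.0593, 0.0984, 0.472 and 0.826 RPKM, and in NAc SNI libraries 7 to 12 at 0.461, 0.547, 1.26, 1.62, 1.20 and 0.404 RPKM. Sham libraries 1 to 4 lay below all SNI libraries, whereas sham libraries 5 and 6 lay inside the SNI range, so the groups overlapped. These levels stand for 3 reads in library 1 (exact Poisson 95% interval 0.619 to 8.77) and 242 in library 10 (212 to 274), a range of 56.4-fold over the region. Intervals cover counting error only. The counting interval of each of libraries 1 to 4 ended below that of every SNI library.

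In PFC sham libraries 13 to 18 Capn11 was at 0.117, 0.0819, 0.0487, 0.198, 0.650 and 1.19 RPKM. In PFC SNI libraries 19 to 24 it was at 0.475, 0.810, 1.40, 1.63, 1.96 and 0.663 RPKM. Libraries 13 to 16 again lay below all SNI libraries, and 17 and 18 lay among them. The lowest library held 8 reads (3.45 to 15.8) and the highest 269 (238 to 303).

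**Figure D1:**
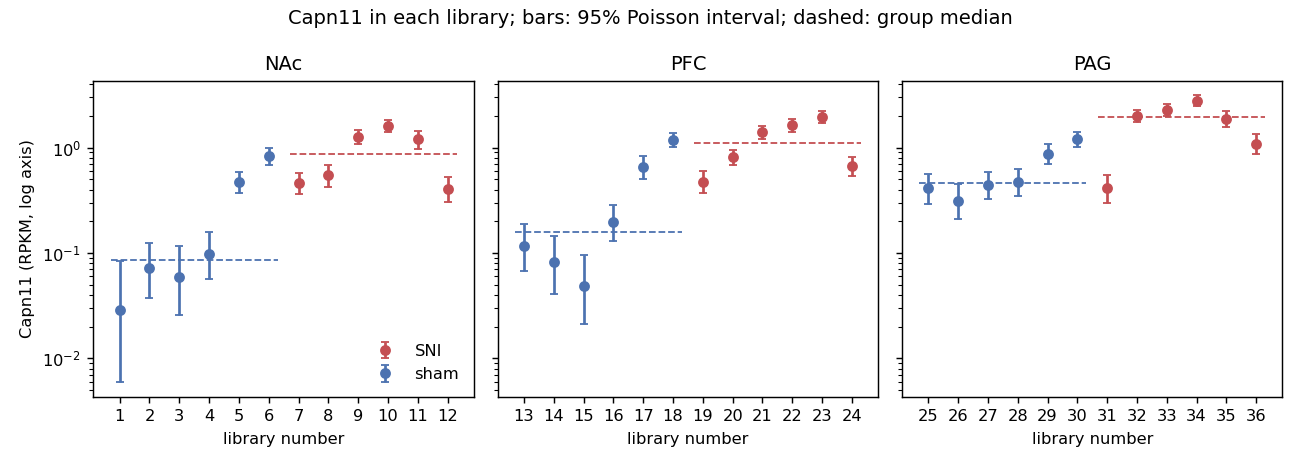
Capn11 level (RPKM, log axis) in each library of NAc, PFC and PAG, by library number, with sham in blue and SNI in red; bars are exact Poisson 95% intervals and dashed lines group medians. In each region the highest sham libraries (5 and 6, 17 and 18, 29 and 30) reach into the SNI range, and PAG SNI library 31 lies at 0.410 RPKM among the sham libraries.

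In NAc the mean Capn11 level was 0.259 ± 0.323 RPKM (SD, n = 6) over sham and 0.914 ± 0.508 over SNI libraries. In PFC these means were 0.381 ± 0.453 and 1.16 ± 0.592. The ratio of means was 3.52 in NAc and 3.04 in PFC. All 6 SNI libraries lay above the sham median in both regions. On the log2(RPKM + 0.5) scale, which understates the change of low genes, SNI lay above sham by 0.91 (SE 0.28) in NAc and 0.96 (SE 0.30) in PFC. The sham means of both regions are under the 0.5 RPKM minimum used for testing, so Capn11 entered these comparisons only through its SNI libraries. In bulk tissue, a change in the number of cells of a type and a change in RNA per cell cannot be told apart.

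PAG was the region not used to choose Capn11. There sham libraries 25 to 30 were at 0.412, 0.312, 0.441, 0.475, 0.877 and 1.20 RPKM, and SNI libraries 31 to 36 at 0.410, 2.01, 2.29, 2.79, 1.87 and 1.09 RPKM. Of 6 SNI libraries 5 lay above the sham median, 4 of them above every sham library, and library 31 was the exception. That library and sham library 27 were those high in ependymal and choroid plexus genes, and a link to Capn11 was not tested. Means were 0.619 ± 0.344 and 1.74 ± 0.859 RPKM (SD, n = 6), a ratio of 2.81. Capn11 rose by 0.94 on the log2 scale (SE 0.28; limma adjusted p = 0.0193). The same difference gave p = 0.0281 in an exact two-sided permutation test over all assignments of the 12 libraries. This permutation p rose above 0.05 without sham 26 (p = 0.0519) and without SNI 33 or SNI 34 (both 0.0541, exact permutation), while the limma call held without each library in turn. PAG is not shown to be an independent repeat, since the labels do not say whether the regions share mice and Capn11 lined up over the regions by library number, as given under the other observations.

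The Capn11 difference was 0.91, 0.96 and 0.94 on the log2 scale in NAc, PFC and PAG. No test of whether these differ is given for Capn11, since it was selected on the first 2 of them.

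Among sham libraries, the order of Capn11 levels was NAc, PFC and PAG from low to high, and limma called no difference between them. NAc lay below PFC by -0.17 (SE 0.31; limma adjusted p = 0.656), PFC below PAG by -0.43 (SE 0.31; adjusted p = 0.209) and NAc below PAG by -0.60 (SE 0.31; adjusted p = 0.0834). With a pseudocount of 0.1 or with voom, limma's method for counts, on the recovered reads the last difference was called, at -1.30 (limma adjusted p = 0.0246) and -2.01 (adjusted p = 0.0253). Taken by place in each region's numbering, which no label says stands for the same mice, PFC lay below PAG at 6 of 6 places, NAc below PAG at 6 of 6 and NAc below PFC at 5 of 6. The NAc and PFC sham libraries also took part in the selection of Capn11, so the p-values of these differences are no independent support for the order.

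Genes of testis and germ cells, where Capn11 is best known, did not separate sham from SNI libraries within a region, and were higher in PAG than in NAc or PFC. Summed over 12 such genes, levels in NAc ran from 5.84 to 7.28 RPKM among sham and from 5.55 to 6.44 among SNI libraries, from 4.80 to 5.52 and 4.81 to 6.38 in PFC, and from 13.6 to 16.7 and 12.7 to 15.7 in PAG. Of the 12 genes, 3 to 5 reached a mean of 0.5 RPKM in a group. Cell type lists overlapped between sham and SNI in each region with 1 exception. Microglial genes summed to 67.7 to 76.1 RPKM in PAG sham and to 82.5 to 104 in PAG SNI libraries, and their part in the Capn11 difference was not tested.

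Of 6 measured genes beside Capn11, 3 on each side, none was called in NAc or PFC and 3 were in PAG, where 35.2% of all genes were called. Tmem63b, the nearest, was at 15.8, 17.9 and 21.9 RPKM (lowest, median and highest) in sham libraries of NAc and at 16.6, 18.01 and 21.4 in its SNI libraries, where Capn11 differed 3.52-fold. In PAG Tmem63b rose by 0.25 (SE 0.04; limma adjusted p = 0.000795) and Mrpl14, a mitochondrial ribosomal protein gene, by 0.51 (SE 0.05; adjusted p = 5.5e-05), as did the nucleoside transporter gene Slc29a1 by 0.31 (SE 0.06; adjusted p = 0.00233). The chaperone gene Hsp90ab1 and the transporter gene Slc35b2 differed by 0.00 (SE 0.06) and 0.10 (SE 0.10), and the antisense gene Gm16172 by 0.09 (SE 0.10), none of them called in PAG.

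The genes whose levels went most closely with Capn11 over the 36 libraries, after each region's mean was subtracted, were Ank (Pearson r = 0.70), a phosphate transport gene, Eri3 (0.65), Mrpl14 (0.65), Rpl18-ps1 (0.64) and Ubl7 (0.64). After each group's mean was subtracted, which removes the difference between SNI and sham, they were the actin gene Acta1 (0.62), the deubiquitinase gene Otub1 (0.62), Eif4ebp3 (0.62), Eif6 (0.60) and Ptges2 (0.60). These are descriptions over libraries that share depth and GC slope. Of the other members Capn15 came nearest, at r = 0.54 and 0.40, and Capn7 went the other way, at -0.48 and -0.42.

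The family differed in level by region in sham mice. Of the classical pair, Capn2 (ENSMUSG00000026509; chromosome 1, 182467260 to 182517608), the catalytic subunit of m-calpain, was the highest member in each region, at 39.2 ± 1.73 RPKM in PAG, 28.1 ± 1.32 in NAc and 21.6 ± 0.284 in PFC (SD, n = 6). Sham libraries of the 3 regions did not overlap, with ranges of 37.6 to 42.3, 26.8 to 30.2 and 21.3 to 21.9. The same held for Capn5, and the share of all genes that separate in this way was not computed. Capn2 was lower in PFC than in PAG by -0.84 (SE 0.04; limma adjusted p = 2.74e-19). Capn1 (ENSMUSG00000024942; chromosome 19, 5988545 to 6015897), the subunit of µ-calpain, had the reverse order, with PFC at 7.39 ± 0.644 RPKM, NAc at 5.13 ± 0.697 and PAG at 4.21 ± 0.382. It was higher in PFC than in PAG by 0.74 (SE 0.08; adjusted p = 4.99e-10) and than in NAc by 0.49 (SE 0.08), and NAc lay above PAG by 0.25 (adjusted p = 0.00647).

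**Figure D2:**
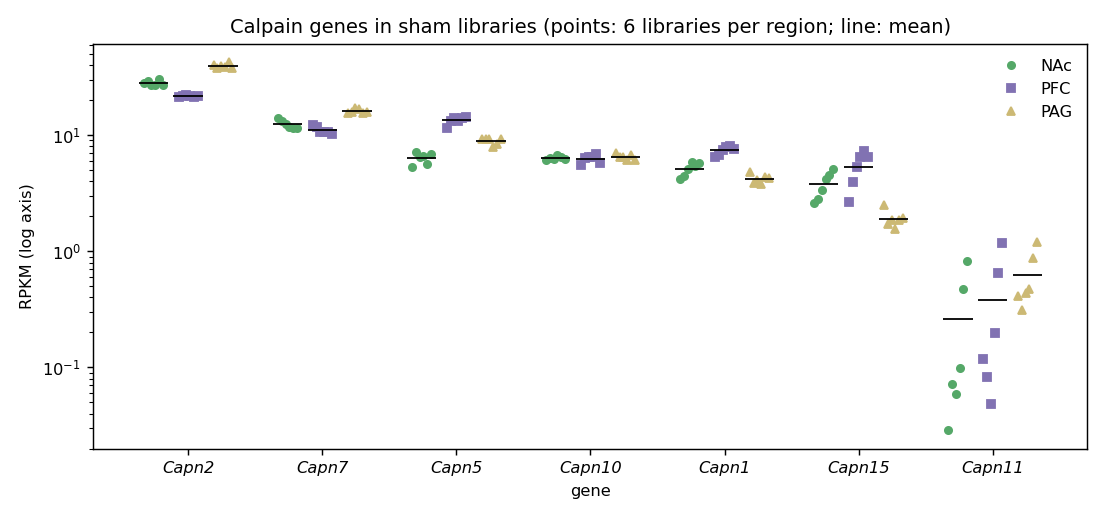
Levels of the 7 calpain genes (RPKM, log axis) in the 6 sham libraries of NAc, PFC and PAG, each point a library and each line a mean. Capn2 is highest in PAG and Capn1, Capn5 and Capn15 in PFC, Capn10 overlaps between regions, and Capn11 spreads from 0.0287 to 1.20 RPKM.

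Capn5 (ENSMUSG00000035547; chromosome 7, 98121559 to 98178274), whose human counterpart is linked to an inherited eye inflammation, was highest in PFC at 13.4 ± 1.07 RPKM, followed by PAG at 8.88 ± 0.616 and NAc at 6.37 ± 0.705. It was the member with a fold of at least 2 between NAc and PFC (-1.02, SE 0.06; limma adjusted p = 8.23e-16). Capn15 (ENSMUSG00000037326; chromosome 17, 25958364 to 25985796), the mammalian counterpart of the fly gene small optic lobes, ran from 5.36 ± 1.75 RPKM in PFC over 3.78 ± 1.003 in NAc down to 1.91 ± 0.320 in PAG. Its 2.35-fold difference between PFC and PAG was called (1.23, SE 0.24; adjusted p = 2.58e-05), and the difference between NAc and PFC was not (-0.42, SE 0.24; adjusted p = 0.130). Its PFC libraries ranged from 2.65 to 7.28 RPKM, a wider spread than that of the higher members.

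Capn7 (ENSMUSG00000021893; chromosome 14, 31336638 to 31371986), a calpain that binds the endosomal sorting machinery, was highest in PAG at 16.1 ± 0.664 RPKM, against 12.4 ± 1.03 in NAc and 11.04 ± 0.772 in PFC. PFC was lower than PAG by -0.53 (SE 0.05; limma adjusted p = 7.97e-11). Its difference between NAc and PFC (0.16; adjusted p = 0.00984) was not called under median-of-ratios scaling (0.09; adjusted p = 0.167). Capn10 (ENSMUSG00000026270; chromosome 1, 92934376 to 92947941), studied for a link to type 2 diabetes, was at 6.36 ± 0.245, 6.26 ± 0.513 and 6.48 ± 0.331 RPKM in NAc, PFC and PAG. Its 3 differences lay between -0.05 and 0.02 (SE 0.07; adjusted p of 0.511 to 0.775) and changed sign under median-of-ratios scaling.

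Between sham regions, 4 of 7 members were called for NAc against PFC, where 59.0% of all genes were called, 5 for NAc against PAG (71.0%) and 5 for PFC against PAG (76.1%). With a fold of at least 2 the counts were 1 (Capn5; 6.85% of genes), 0 (13%) and 1 (Capn15; 15.1%), so neither count stands apart from genes in general. The members' median was -0.17, -0.37 and -0.05, beside 0.07, -0.02 and -0.09 for all genes tested. Median-of-ratios scaling moved the median of all genes by 0.12 for PFC against PAG. It moved the share of calls on the higher side from 62.2% to 50.9% for NAc against PFC and from 40.7% to 52.4% for PFC against PAG.

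Exons of Capn1, Capn2, Capn7, Capn10 and Capn15 share bases with a gene of the other strand, among them 394 bases of Capn1 with Gm10814, 1717 of Capn2 with Gm37885, 639 of Capn10 with 9430060I03Rik and 1105 of Capn15 with D630044L22Rik. The strand setting of the counting is not given in the sources used here, so reads of these partners cannot be told apart from those of the calpain.

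After nerve injury none of the 6 members other than Capn11 was called in NAc or PFC, where limma called 0 of 15264 and 0 of 15192 genes (0.00% in both) and voom also called 0. An unadjusted p under 0.05 was reached by 660 and 220 genes. Sham and SNI values overlapped for all 7 members in both regions, as they did for all but 0.131% of genes in NAc and 0.0856% in PFC. Apart from Capn11, the members' differences in PFC lay within -0.02 to 0.03. In NAc they lay within -0.08 to 0.10, but for Capn15 at 0.44 (SE 0.25; limma adjusted p = 0.780), which ranged from 2.62 to 5.10 RPKM in sham and from 2.19 to 7.34 in SNI libraries.

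In PAG 6 of the 7 members were called, where 35.2% of all genes were. Of these 5 were higher (21.5% of genes) and 1 was lower (13.7%). The members' median difference was 0.20, beside -0.02 for all 15592 genes tested.

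Capn15 was at 1.56, 1.87 and 2.50 RPKM (lowest, median and highest) in PAG sham and at 2.40, 3.65 and 5.75 in PAG SNI libraries. It rose by 0.79 on the log2 scale (SE 0.14; limma adjusted p = 0.000948), with 5 of 6 SNI libraries above every sham library. Capn1 was at 3.797, 4.17 and 4.85 RPKM in sham and 4.32, 5.0 and 5.90 in SNI libraries and rose by 0.24 (SE 0.07; adjusted p = 0.0208). Capn5, at 7.86, 9.23 and 9.31 against 9.48, 10.4 and 11.03 RPKM, rose by 0.20 (SE 0.05; adjusted p = 0.00893), and was the member whose groups did not overlap, as for 16.9% of all genes.

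Capn10 rose from 6.48 ± 0.331 to 7.18 ± 0.242 RPKM (SD, n = 6; 0.14, SE 0.04; limma adjusted p = 0.0141). Capn7 fell from 16.1 ± 0.664 to 14.7 ± 0.917 RPKM (-0.13, SE 0.04; adjusted p = 0.0294), a call that did not hold when any 1 of sham libraries 27 and 28 or SNI libraries 31, 34 and 36 was left out. Capn1 was not called without sham 28 (adjusted p = 0.0508). Capn2, the most abundant member, was at 39.2 ± 1.73 and 39.1 ± 1.56 RPKM, with a difference of -0.0027 (95% interval -0.08 to 0.07). With all 36 libraries in 1 model, Capn7 and Capn10 were not called (adjusted p = 0.0715 and 0.129). The SNI effects of the 6 members other than Capn11 were not shown to differ between regions, with 0 of 15639 genes (0.00%) called in each of the 3 tests by limma and by voom. An unadjusted p under 0.05 was reached by 178 genes for NAc against PFC, 1405 for NAc against PAG and 2779 for PFC against PAG. The widest of these differences was that of Capn15 between PFC and PAG, at -0.80 (SE 0.34; limma adjusted p = 0.235).

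**Figure D3:**
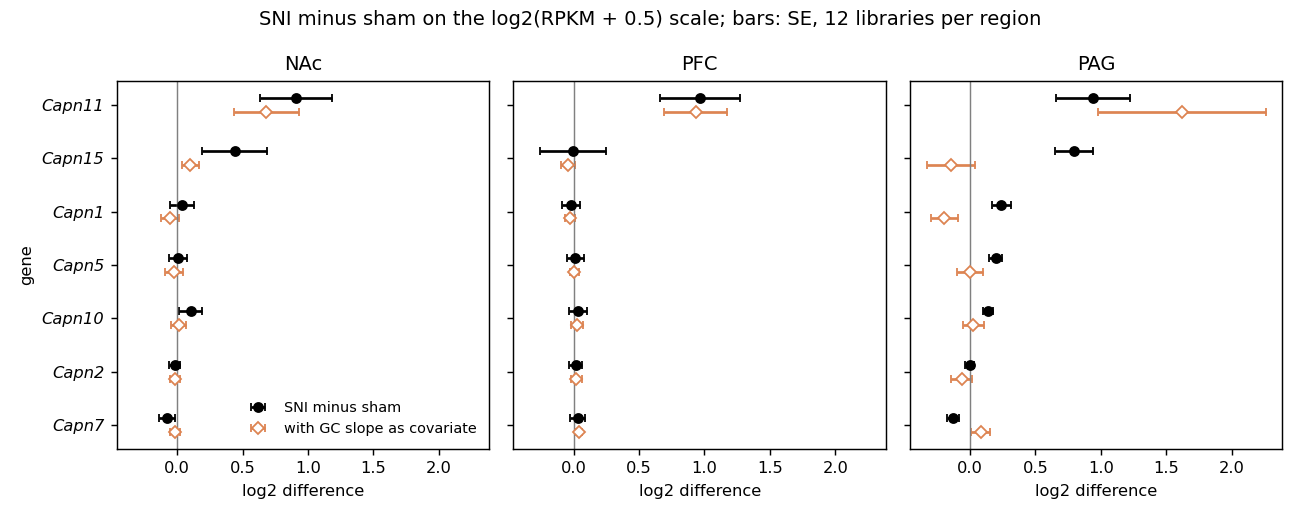
Difference between SNI and sham (log2(RPKM + 0.5) scale, bars SE, 12 libraries per region) for the 7 members, without (black) and with (orange) the GC slope of the library as a covariate. Capn11 lies above 0 in the 3 regions in both fits, while in PAG Capn15, Capn1, Capn5 and Capn7 change sign with the covariate.

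Sham and SNI libraries of PAG also differed in GC slope, and the members differ in GC content. GC content, that of the longest annotated transcript, was 61.1% in Capn15, 57.9% in Capn10, 57.1% in Capn1, 56.0% in Capn5, 52.5% in Capn11, 51.8% in Capn2 and 42.2% in Capn7. The 4 members of highest GC content and Capn11 were those that rose, and the member of lowest GC content was the one that fell. With the GC slope as a covariate, 0 of 7 members and 0 of 15592 genes were called in PAG, and 1386 genes had an unadjusted p under 0.05. Capn15 then stood at -0.15 (SE 0.18), Capn1 at -0.19 (SE 0.10), Capn5 at -0.00092 (SE 0.10), Capn10 at 0.03 (SE 0.08) and Capn7 at 0.08 (SE 0.07). Capn11 stood farther from 0, at 1.62 (SE 0.64; limma adjusted p = 0.526). Since the slopes of PAG sham and SNI libraries did not overlap, surgery and GC slope cannot be told apart in this region.

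Within groups, members differed in how closely they went with the GC slope. Of 21 relations between a member and the slope, each over 12 libraries centred by group, 13 passed Benjamini-Hochberg adjustment at 0.05 (permutation test with 100000 resamples), 4 in NAc, 6 in PFC and 3 in PAG. Each member is itself among the genes from which the slope was computed. The share of all genes that would pass was not computed, so the 13 cannot be set against genes in general. For Capn15, r was 0.98 in NAc (rho 0.91, permutation p = 0.0002; p of r = 1e-05, the smallest these resamples can give; adjusted p = 0.00021), and 0.95 without the 2 libraries of most extreme slope. In PFC, r was 0.98 (p = 8e-05, adjusted p = 0.00056, permutation; rho 0.86, p = 0.00102; 0.95 without 2 libraries). In PAG, r was 0.87 (p = 0.00184, adjusted p = 0.00552, permutation; rho 0.52, p = 0.114; 0.84 without 2 libraries).

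Capn7 went against the slope, at r = -0.82 in NAc (p = 0.00157, adjusted p = 0.00549, permutation; rho -0.88, p = 0.00012; -0.83 without 2 libraries). It was at -0.97 in PFC (p = 6e-05, adjusted p = 0.00056, permutation; rho -0.93, p = 9e-05; -0.93 without 2 libraries) and -0.76 in PAG (p = 0.0051, adjusted p = 0.0107, permutation; rho -0.78, p = 0.00647; -0.71 without 2 libraries). Capn1 was at r = 0.75, 0.91 and 0.85 in the 3 regions (adjusted p = 0.0112, 0.0022 and 0.00462, permutation; rho 0.83, 0.81 and 0.73; without 2 libraries 0.76, 0.78 and 0.80). Capn10 passed in NAc (r = 0.81, rho 0.66; adjusted p = 0.00882, permutation) and in PFC (0.74, rho 0.38; adjusted p = 0.0266, permutation), and Capn5 in PFC (0.89, rho 0.72; adjusted p = 0.00761, permutation). Without the 2 libraries of most extreme slope, r was 0.52, 0.08 and 0.53, so the relation of Capn10 in PFC rests on those libraries. Capn5 did not pass in NAc (r = 0.35, rho 0.31; adjusted p = 0.279, permutation) or PAG (0.58, rho 0.34; adjusted p = 0.0982, permutation), nor Capn10 in PAG (0.51, rho 0.35; adjusted p = 0.129, permutation). Capn2 passed in none of the regions, at -0.07, -0.50 and 0.26.

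**Figure D4:**
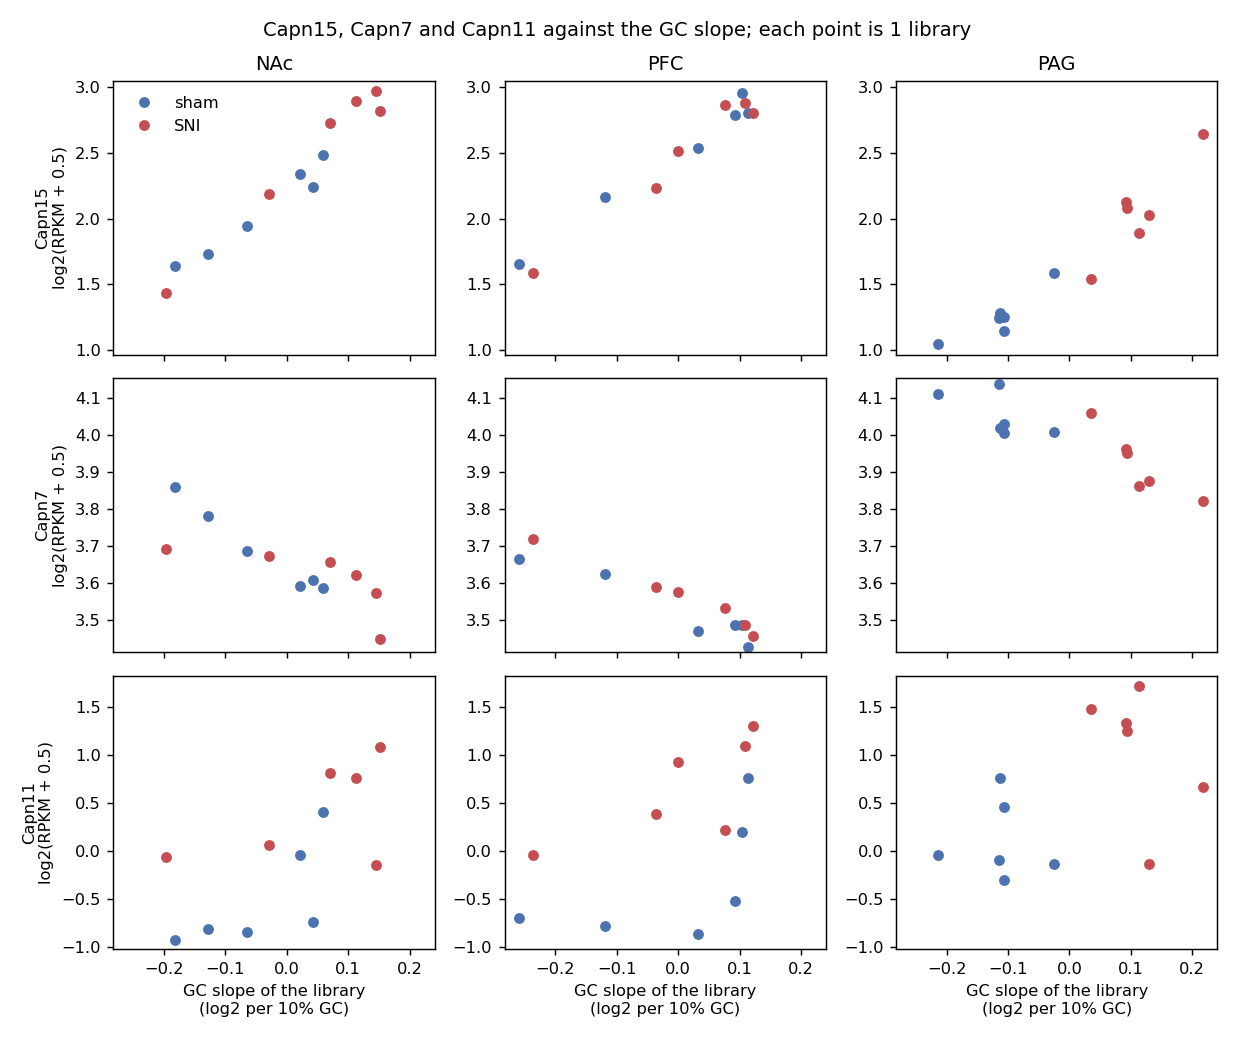
Level of Capn15, Capn7 and Capn11 (log2(RPKM + 0.5)) against the GC slope of the library (log2 per 10% GC) in NAc, PFC and PAG, 1 point per library, sham in blue and SNI in red. Capn15 climbs and Capn7 declines with the slope in each region, sham and SNI libraries are split by slope in PAG, and Capn11 differs widely between libraries of like slope.

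Capn11 passed in PFC alone among the regions. Its r was 0.60 in NAc (p = 0.0488, adjusted p = 0.0733, permutation; rho 0.52, p = 0.107; 0.51 without 2 libraries). In PFC it was 0.66 (p = 0.0276, adjusted p = 0.0446, permutation; rho 0.80, p = 0.00491; 0.61 without 2 libraries), and in PAG -0.32 (p = 0.333, adjusted p = 0.368, permutation; rho -0.52, p = 0.103; -0.39 without 2 libraries). With the slope as a covariate, SNI lay above sham by 0.68 (SE 0.25) in NAc and 0.93 (SE 0.24) in PFC, against 0.91 and 0.96 without it.

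Of the partners of the classical calpains, the small subunit gene Capns1 was at 76.8 ± 3.59 RPKM in PAG sham libraries, against 49.1 ± 4.29 in NAc and 48.4 ± 2.78 in PFC. It was lower in PFC than in PAG by -0.66 (SE 0.05; limma adjusted p = 7.54e-14). Cast, the inhibitor, was far higher in PAG, at 11.02 ± 0.426 RPKM, than in NAc at 3.51 ± 0.541 or PFC at 3.02 ± 0.454. PFC was lower than PAG by -1.72 (SE 0.09; adjusted p = 9.11e-18). The second small subunit gene, Capns2, was near 0.5 RPKM in NAc and PAG and at 0.921 ± 0.256 in PFC. Exons of Cast share 834 bases with Erap1 and those of Capns1 share 202 with Gm26810, each on the other strand. Reads of these partners cannot be told apart either, as given for the members.

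After injury 0 of these 3 genes were called in NAc and PFC, as for 0.00% of all genes in both. In PAG 1 was called, where 35.2% of all genes were. Cast fell there from 10.7, 10.9 and 11.8 RPKM (lowest, median and highest) in sham to 8.87, 9.05 and 10.4 in SNI libraries (-0.24, SE 0.04; limma adjusted p = 0.000728). The groups of Cast did not overlap, as for 16.9% of all genes. Its GC content is 42.8%, close to that of Capn7, and with the GC slope as a covariate it stood farther from 0, at -0.37 (SE 0.08; adjusted p = 0.509). Capns1 was at -0.07 (SE 0.04; adjusted p = 0.198) and Capns2 at 0.04 (SE 0.15; adjusted p = 0.844).

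Of 7 other calpain genes sought, 6 were in the table. Capn3, the calpain of skeletal muscle, was the one that passed the minimum in each region, with sham libraries at 1.83 ± 0.231 RPKM in PFC, at 1.21 ± 0.106 in NAc and at 0.829 ± 0.0835 in PAG. It differed between each pair of regions (0.81 for PFC against PAG, SE 0.08; limma adjusted p = 2.87e-11) and by -0.08, -0.01 and -0.02 between SNI and sham in NAc, PFC and PAG (adjusted p = 0.782, 1 and 0.876). Capn6, which lacks a catalytic cysteine, passed in PAG, at 0.618 ± 0.129 RPKM in sham and 0.623 ± 0.0564 in SNI libraries (0.01; adjusted p = 0.909). Exons of Capn3 share 386 bases with Ganc and those of Capn6 share 122 with Gm47298, on the same strand. What these partners add was not tested. Capn8, Capn9, Capn12 and Capn13 stayed under the minimum, the highest group mean among them being 0.481 RPKM, of Capn12 in PFC sham libraries.

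Of 30 genes for known calpain substrates 29 were tested. None was called in NAc or PFC, and in PAG 7 rose and 5 fell, where 21.5% and 13.7% of all genes did, with a median of -0.05 beside -0.02 for all genes. The largest changes there were rises of the apoptosis gene Bax (0.56, SE 0.07; limma adjusted p = 8.45e-05), the phosphatase gene Ptpn1 (0.43, SE 0.06), the intermediate filament gene Vim (0.34, SE 0.06) and the talin gene Tln1 (0.34, SE 0.08). Between sham regions 17, 27 and 24 of 29 were called for NAc against PFC, NAc against PAG and PFC against PAG, beside 59.0%, 71.0% and 76.1% of all genes. The neurofilament gene Nefm was lower in PFC than in PAG by -2.36 (SE 0.14), and the NMDA receptor gene Grin2b higher by 2.07 (SE 0.09). The calcium-dependent kinase gene Camk4 was higher in NAc than in PAG by 2.31 (SE 0.10) and the calcineurin gene Ppp3ca by 1.84 (SE 0.08). Slc8a3, a sodium and calcium exchanger gene, was higher in NAc than in PFC by 0.99 (SE 0.05).

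Of 12 other cysteine protease genes, cathepsins among them, 12 were tested. None was called after injury in NAc or PFC, and in PAG, where 35.2% of all genes were called, 1 fell, the cathepsin gene Ctsl (-0.23, SE 0.05; limma adjusted p = 0.00154), from 67.7 to 57.6 RPKM. In sham mice 8 of the 12 were lower in NAc than in PAG and 1 was higher. Of all 15639 genes tested, 5954 were called lower and 5153 higher, 71.0% in either direction. Ctsl (-0.87, SE 0.06), the legumain gene Lgmn (-0.81, SE 0.04) and the cathepsin gene Ctsb (-0.65, SE 0.04) led the lower side.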

How the data were processed

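Polyadenylated RNA of 36 libraries was sequenced, 6 per group, with TruSeq libraries per the labels' protocols. The authors deposited RPKM values for 31554 genes, with gene lengths. TopHat2, HTSeq and the mm10 build are named, per the submitters' processing notes. What each tool did, and how it was set, is not given in the sources used here. Reads were recovered as RPKM times length over the value of 1 read, with exact Poisson 95% intervals. The comparisons used limma 3.58.1 with a mean-variance trend (R 4.3.3) on log2(RPKM + 0.5), over genes whose mean reached 0.5 RPKM. Each region's 12 libraries were fitted alone for SNI against sham, and all 36 together for sham regions and differences of SNI effects. All tests were two-sided. P-values were adjusted by Benjamini-Hochberg over all genes tested, with a threshold of 0.05. The limma fit was also run on counts simulated around PFC levels with no GC slope. That run does not cover the split of slopes in PAG. Annotation came from GENCODE M21, which matched 97.9% of identifiers, and promoters from RefSeq (6 of 7 members matched). Among 90 pairs of libraries of 1 group, chi-square over its degrees of freedom was at least 3.89, so no pair agreed within sampling noise. Members, lists and tests were chosen with earlier results of these data known. Named genes were the members, all other calpains and regulators, up to 4 called substrates or proteases of largest change per comparison, the 3 nearest measured genes on each side of Capn11, and the 5 genes most like it. Of these, 1 protease gene is not reported here. Alternatives were pseudocounts of 0.1 and 1, no filter or 2 RPKM, median-of-ratios scaling, voom on recovered reads, a GC covariate, all libraries in 1 model, and leaving out each library.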

Additional observations from a re-analysis of the deposited data

Results flagged for a closer look

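In 3 of 42 groups of 6 libraries, 1 library stood apart from the others by Dixon's test, which chance does in about 1 in 20 groups. Capn5 was at 11.5 RPKM in PFC SNI library 19, with the other 5 at 13.8 to 14.1. Capn10 was at 5.40 RPKM in the same library, with the others at 6.36 to 6.77. Capn10 was also at 4.94 RPKM in NAc SNI library 7, with the others at 6.88 to 7.56. These 2 libraries had the lowest GC slopes of their groups, at -0.24 and -0.20. No group of Capn11 was among the 3.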

How the results depend on the processing

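No paired analysis was possible because the groups share no library numbers and no label ties a place in the numbering to the same mice. The SNI calls in PAG numbered 3337 genes with all 36 libraries in 1 model, and 0 genes and 0 members with the GC slope as covariate. Leaving out each library gave 0 to 3 genes in NAc (3 without SNI 7), 4234 to 6529 genes and 4 to 6 members in PAG, and 0.81 to 1.18 for Capn11 in PAG (permutation p of 0.00649 to 0.0541). With a pseudocount of 1, 4 and 5 genes differed in SNI effect between NAc and PAG and between PFC and PAG. With the GC slope, SNI differences turned to -0.052 (Capn1) and -0.023 (Capn5) in NAc, and in PAG to -0.19 (Capn1), -0.00092 (Capn5), 0.082 (Capn7) and -0.15 (Capn15). Median-of-ratios scaling turned Capn2 in NAc to 0.016 and Capn10 to -0.046, 0.035 and 0.081 for NAc against PFC, NAc against PAG and PFC against PAG. Uncalled SNI differences crossed 0 on leaving out a library for Capn1 (-0.013 to 0.076), Capn2 (-0.036 to 0.0031) and Capn5 (-0.038 to 0.038) in NAc, for Capn1 (-0.054 to 0.021), Capn2 (-0.019 to 0.038), Capn5 (-0.030 to 0.058) and Capn15 (-0.17 to 0.17) in PFC, and for Capn2 (-0.015 to 0.019) in PAG. Capn11 ranged from 0.82 to 1.09 in NAc and 0.83 to 1.18 in PFC. Without NAc SNI 10 it fell under the minimum and gave no value. With a pseudocount of 0.1 Capn11 was at 1.76 in NAc, 1.72 in PFC and 1.28 in PAG, and with voom at 2.47 in NAc and 2.35 in PFC. The causes of these shifts were not tested, and in PAG, where the range of the GC slope differs between groups, surgery and slope cannot be told apart. At 3 to 16 reads in NAc sham libraries 1 to 4, depth limits the fold of Capn11 there.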

Other observations

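Capn11 lined up over the 3 regions by place in the numbering, a pattern noticed after the values were seen. Each region's libraries are numbered in a run of 12, sham first, and the labels do not say that a place stands for the same mice. The highest sham libraries were the last 2 of each run, with 0.472 and 0.826 RPKM in NAc, 0.650 and 1.19 in PFC and 0.877 and 1.20 in PAG, whereas the first 4 lay between 0.0287 and 0.0984, 0.0487 and 0.198, and 0.312 and 0.475. Among SNI libraries the ninth to eleventh of each run lay between 1.20 and 1.62 RPKM in NAc, 1.40 and 1.96 in PFC and 1.87 and 2.79 in PAG. Places 7, 8 and 12 lay between 0.404 and 0.547 RPKM in NAc, 0.475 and 0.810 in PFC and 0.410 and 2.01 in PAG. In PAG place 8, at 2.01 RPKM, lay above place 11, at 1.87. Over the 12 places, centred by group, r was 0.95 between NAc and PFC, 0.82 between NAc and PAG and 0.83 between PFC and PAG.

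By the lowest of these 3 correlations Capn11 took place 33 of 15639 genes. A value of at least 0.8 was reached by 37 genes, and the median gene was at -0.16. The leading genes were Lcn2 (0.98) and S100a8 (0.93), S100a9 (0.91), all known from inflammation, the lipid droplet gene Plin4 (0.97), Hif3a (0.93), the endoplasmic reticulum chaperone genes Calr (0.91) and Hspa5 (0.91), and Xdh (0.91). The GC slope lined up between NAc and PFC (0.94) but not with PAG (-0.23 and -0.35). Of the other members, Capn15 (0.93), Capn7 (0.81), Capn1 (0.78) and Capn10 (0.76) lined up between NAc and PFC, with values of -0.15 to 0.28 against PAG. The 3 regions may therefore not be independent of each other for Capn11, and no test was made of this.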
